A study of Mus musculus with 8 samples.

Results

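Ribosome biogenesis and polyamine synthesis were read through 32 genes, chosen by name as a growth programme of the enlarging mouse liver. They were read from the probe sets that the platform's annotation assigns to these symbols, taking the probe set with the highest mean signal for each gene. Of the 32 genes, 31 had a probe set of their own, among 18193 genes with one on the array. The spermine synthase gene Sms was listed only on probe sets shared with Sms-ps, a related entry in the annotation, and is given no value here. Of the 31 genes, 27 had a mean signal above the limit set for testing, as did 12112 of all genes, and the other 4 (Rrp9, Rrp12, Wdr12 and Ppan) lay below it.

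Ribosomes are built in the nucleolus. RNA polymerase I transcribes the long precursor of the ribosomal RNAs, small nucleolar ribonucleoproteins (snoRNPs) guide its methylation and pseudouridylation, and large assemblies of processing factors fold and cleave it into the small and the large subunit. Polyamines are small cations, made from ornithine, that bind RNA and support translation and growth. Both programmes are known to be raised by the transcription factor MYC in growing cells, and both are engaged when liver grows after partial hepatectomy or a mitogen.

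The study used 8 Affymetrix arrays of liver RNA, with 2 arms sampled on days 0, 1, 2 and 5 and 1 array per arm and day. The MET KO + EGFRi arm (genotype Metff/ff:ERCre+/+) received tamoxifen into the peritoneum on 5 consecutive days, which makes the Cre active and deletes the floxed Met gene in the whole body. Its mice also ate canertinib, an inhibitor of the receptor EGFR, in a diet aimed at 80 mg/kg per day, from 1 day before TCPOBOP. The control arm was littermates with the same floxed and Cre alleles, given corn oil with neither tamoxifen nor canertinib. TCPOBOP, a ligand of the nuclear receptor CAR that makes mouse hepatocytes divide without injury, was given once by mouth at 3 mg/kg, at least 5 days after the last tamoxifen dose. The study asks how a combined block of MET and EGFR bears on the liver enlargement that TCPOBOP causes. Tamoxifen, the loss of Met and canertinib came together in 1 arm, and their effects cannot be told apart. Each array held RNA of pooled livers. The number of mice in a pool, their sex and age, whether the day 0 mice received TCPOBOP, and the deleted stretch of Met are not given in the sources used here.

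Signals are MAS5 intensities on a linear scale, set by the authors so that each array has the same trimmed mean. The median signal over all probe sets was 235 to 241 in the MET KO + EGFRi arrays and 224 to 251 in the control arrays. The 3' to 5' ratio of the actin control probe sets, a sign of RNA quality, ran from 1.57 to 2.36 in the MET KO + EGFRi arrays, with its highest value on day 5, and from 1.58 to 1.90 in the control arrays. Cyp2b10, the classic target of CAR, had a signal of 356.4, 37324.3, 32026.9 and 48291.9 on days 0, 1, 2 and 5 in the MET KO + EGFRi arm, against 444.0, 38898.2, 33939.0 and 45577.9 in the control arm. Met had a signal of 1502.2, 1049.0, 2033.7 and 1357.6 in the MET KO + EGFRi arm and of 1444.3, 926.0, 1335.5 and 1149.3 in the control arm. A second Met probe set had 388.7 to 650.0 in MET KO + EGFRi and 359.3 to 786.2 in control livers. Since the deleted stretch is not known, these probe sets, made for the 3' part of a transcript, do not check the deletion. The 7 hepatocyte markers (Alb, Apoa1, Ttr, Serpina1c, Fabp1, Cps1 and Hnf4a) were all above the limit, with summed signals of 235044 to 354109 in MET KO + EGFRi and 233405 to 387666 in control livers.

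MYC and its partner MAX bind the E-box CACGTG, a palindrome that reads the same on both strands. This motif was looked for in the RefSeq windows (build GRCm38.p6) from 250 bases before to 50 bases after each transcription start, which were at hand for 26 of the 32 genes. It occurred in the windows of 7 of these 26 genes (26.9%), against 11.1% of the 9767 measured genes with a window and 8.09% of all 27025 genes with one. Other genes of the same pathways had it at 15.4% (RNA polymerase I), 30.3% (small subunit), 11.8% (large subunit) and 21.4% (polyamines). The 7 members with it were Mybbp1a, Wdr43, Utp20, Pes1, Nop2, Rpf2 and Sms. The stretches around 6 of these E-boxes are shown because these genes are followed through the arrays below, which Sms is not. They are written 5′ to 3′ on the gene's strand, with the E-box in capitals.
Mybbp1a: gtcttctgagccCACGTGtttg
Wdr43: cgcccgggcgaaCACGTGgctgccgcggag
Utp20: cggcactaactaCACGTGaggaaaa
Pes1: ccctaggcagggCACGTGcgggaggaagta
Nop2: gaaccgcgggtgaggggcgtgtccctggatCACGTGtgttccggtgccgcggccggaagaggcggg
Rpf2: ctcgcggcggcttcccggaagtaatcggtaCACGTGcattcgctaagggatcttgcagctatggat
The stretches lie at chr11:72441355-72441376 on the plus strand (Mybbp1a), chr17:71616220-71616249 on the plus strand (Wdr43), chr10:88826765-88826789 on the minus strand (Utp20), chr11:3963965-3963994 on the plus strand (Pes1), chr6:125131793-125131858 on the plus strand (Nop2) and chr10:40246970-40247035 on the minus strand (Rpf2). Relative to the start, the E-box began at 41 in Mybbp1a, 18 in Wdr43, 38 in Utp20 and 3 in Pes1, all within the transcribed part, and at -60 in Nop2 and -26 in Rpf2. A second Rpf2 window, whose start lies further upstream, held the same E-box. The ETS family motif CCGGAAG, searched on both strands, occurred in 34.6% of the members and in 17.6% of measured genes. Other genes of the same pathways had higher shares than the members, at 61.5%, 45.5%, 44.1% and 42.9% in the order given above. The SP family motif GGGCGG was as common in the members (65.4%) as in measured genes (63.6%), and the NRF1 motif stood at 23.1% and 10.3%. These matches describe the letters only and do not show that a factor binds there.

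Across the 8 arrays the 27 measured genes varied about as much as other genes. Their median SD was 0.24 on the scale log2(signal + 71) used throughout, on which folds of weak genes are understated, against 0.249 for the 10306 genes of the same range of mean signal. Bop1 varied least (SD 0.108) and Rrs1 most (SD 0.715). The median ratio of a gene's highest to its lowest array was 1.65. Over the 351 pairs of genes the median Pearson r across the 8 arrays was 0.19, and 106 pairs had a negative r. All values come from the same 8 arrays, so these correlations are a description. In bulk RNA, fewer cells of a type and less RNA per cell cannot be told apart.

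**Figure D1:**
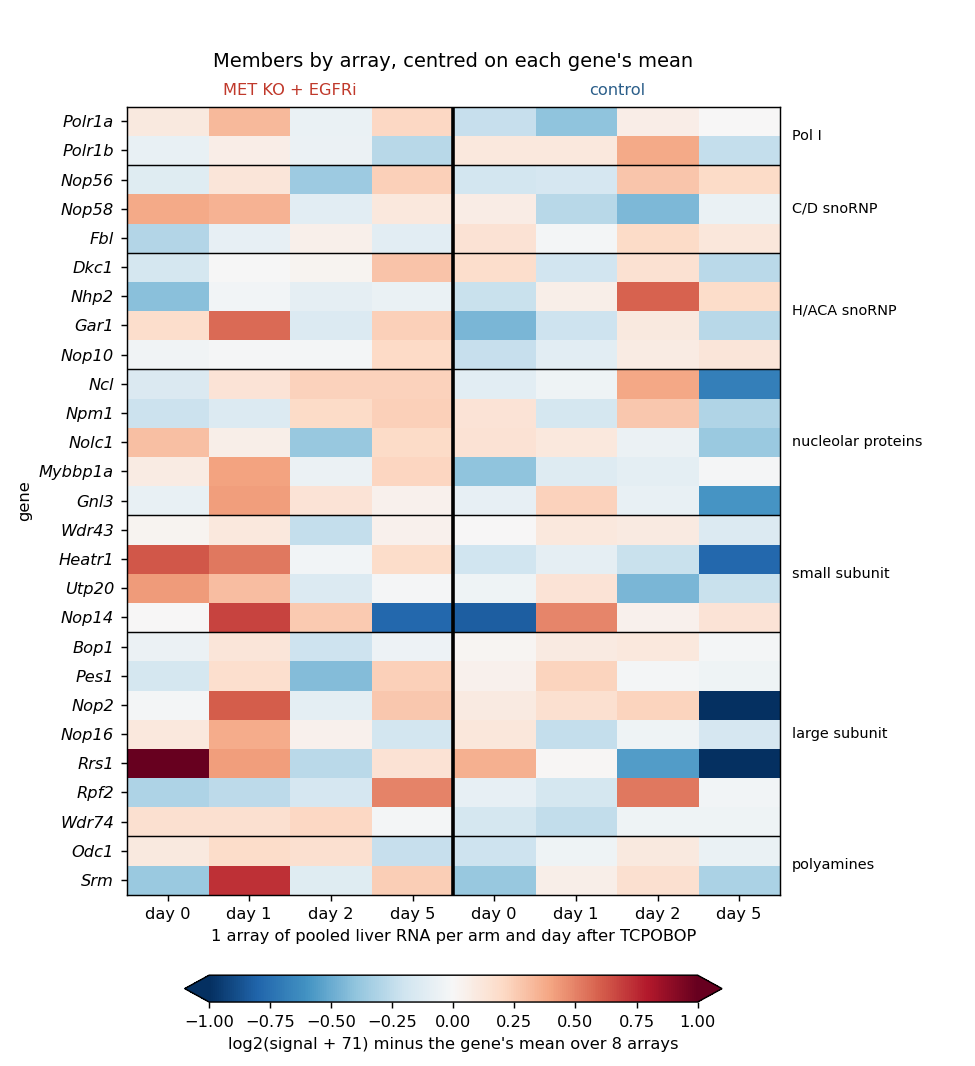
Each row is 1 of the 27 measured genes, ordered by role, and each column 1 array of pooled liver RNA, with the MET KO + EGFRi arm on the left and the control arm on the right. Colour is log2(signal + 71) minus the gene's mean over the 8 arrays. The MET KO + EGFRi column of day 1 holds the highest value of 11 genes (40.7%, against 12.8% of all genes). The control column of day 5 holds the lowest value of 7 (25.9%, against 13.4%).

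The arms were compared over the 4 days with limma, with arm and day as terms, on all 12112 genes. With 1 array per arm and day, p-values rest on how far the difference between the arms varied from day to day. They do not measure the spread between animals. No member passed an adjusted p of 0.05 (Benjamini-Hochberg over all genes), against 0.413% of all genes that were called higher and 0.165% called lower. The smallest adjusted p of a member was 0.167, for Heatr1. Without adjustment, 3 members (Heatr1, Rrs1 and Mybbp1a, all higher in MET KO + EGFRi) had a limma p under 0.05, which is 11.1% of the members and close to the 12.1% of all genes. The log2 difference, MET KO + EGFRi minus control, was above 0 in 19 members and below 0 in 8, with a median of 0.11 beside 0.00 over all genes. It ran from -0.30 (Nhp2) to 0.72 (Rrs1). For 24 of the 27 genes the 95% interval lay within a log2 difference of 1 in both directions, and its median half-width was 0.37. When an array or a day was left out, 18 of the 27 differences kept their sign in each fit, and those of Nop56, Dkc1, Ncl, Npm1, Nolc1, Wdr43, Nop14, Pes1 and Rpf2 turned or came to 0.00 in some.

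Counts by array and by day were also set beside the shares of all genes. Heatr1 and Wdr74 were the 2 members (7.41%) whose lowest MET KO + EGFRi array was above their highest control array, against 3.5% of all genes, and 0 members lay wholly below, against 2.75%. Nop58, Mybbp1a, Gnl3, Heatr1, Utp20, Rrs1 and Wdr74 were higher in MET KO + EGFRi than in control on each of the 4 days, 7 genes or 25.9% against 9.92% of all genes. Polr1b, Fbl and Nhp2 were lower on each day, 3 genes or 11.1% against 10.3%.

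**Figure D2:**
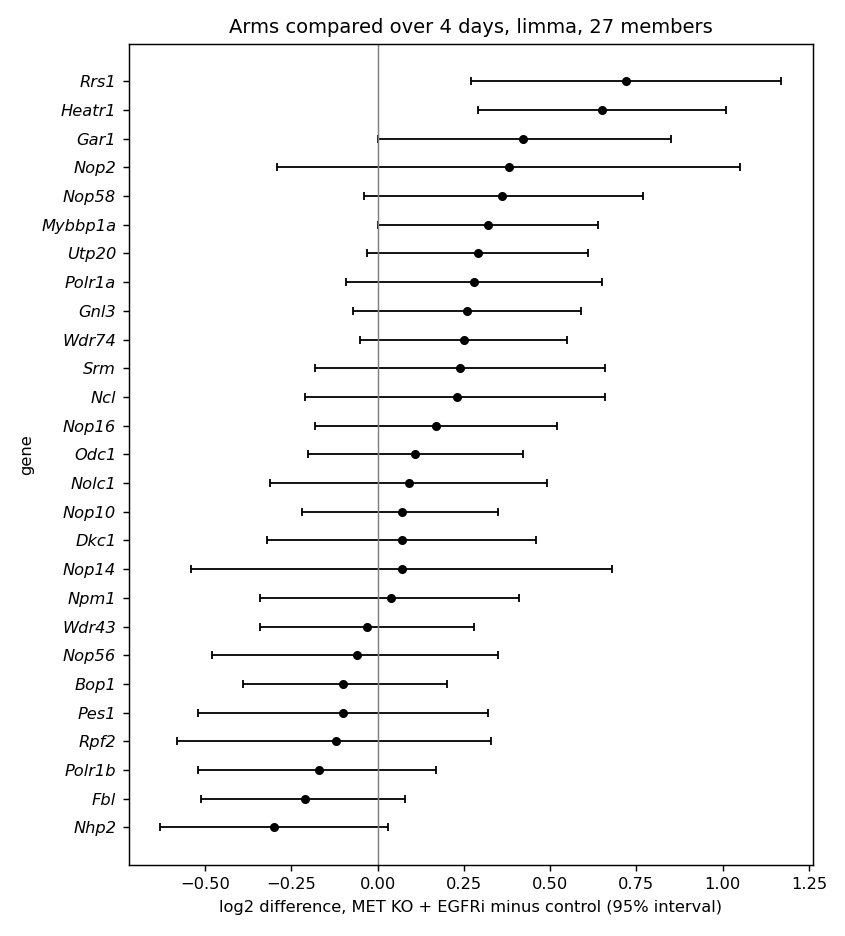
Points are the log2 differences between the arms, MET KO + EGFRi minus control, averaged over the 4 days for each of the 27 genes, and bars are 95% intervals from limma. Rrs1 (0.72) and Heatr1 (0.65) stand at the top and Nhp2 (-0.30) at the bottom, and no gene passes the adjusted threshold.

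RNA polymerase I was represented by its 2 largest subunits, Polr1a and Polr1b, which together form the catalytic centre. Polr1a had a signal of 1200.6, 1417.4, 1068.2 and 1307.8 on days 0, 1, 2 and 5 in the MET KO + EGFRi arm, against 944.4, 832.6, 1176.6 and 1123.2 in the control arm. Polr1b had 405.8, 454.5, 409.7 and 342.2 in the MET KO + EGFRi arm, against 467.8, 469.0, 582.6 and 353.4 in the control arm. The estimates for these 2 subunits had opposite signs, 0.28 for Polr1a (95% interval -0.09 to 0.65) and -0.17 for Polr1b (-0.52 to 0.17). Both intervals reach to either side of no difference, so neither sign is settled. Without day 1 the difference of Polr1a was 0.13, and without day 2 that of Polr1b was -0.08. On its strongest probe set Polr1a was higher in MET KO + EGFRi on days 0, 1 and 5 and lower on day 2. The ranges of the arms overlapped for both genes. A second Polr1a probe set above the limit was lower in MET KO + EGFRi on day 0, at 371.5 against 555.1, and higher on the later days. Its mean difference was 0.02.

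Nop56, Nop58 and fibrillarin (Fbl) are core proteins of the box C/D snoRNPs, in which fibrillarin is the methyltransferase that modifies ribosomal RNA. Fbl had a signal of 1410.8, 1649.7, 1813.2 and 1616.8 in the MET KO + EGFRi arm, against 1942.1, 1717.7, 1999.5 and 1898.2 in the control arm, lower on all 4 days by a mean log2 difference of -0.21 (95% interval -0.51 to 0.08). Nop58 had 410.0, 398.6, 272.2 and 325.1 in the MET KO + EGFRi arm, against 316.8, 233.0, 198.8 and 280.4 in the control arm, higher on all 4 days by 0.36 (-0.04 to 0.77). Nop56, which pairs with Nop58 in the particle, had 495.4, 601.1, 407.3 and 657.3 in the MET KO + EGFRi arm and 473.5, 478.6, 677.9 and 633.4 in the control arm, a difference of -0.06. On its strongest probe set Nop56 was lower in MET KO + EGFRi on day 2 only, and without that day its difference was 0.13. A second Nop56 probe set, which can bind related RNAs, was lower in MET KO + EGFRi on days 0, 1 and 2. On day 5 it was higher, at 396.7 against 119.4, and its mean difference was -0.01. None of the 3 genes passed the test.

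Box H/ACA snoRNPs, which turn uridine into pseudouridine, hold the pseudouridine synthase dyskerin (Dkc1) with Nhp2, Gar1 and Nop10. Dkc1 had a signal of 1199.3, 1359.3, 1393.2 and 1677.5 in the MET KO + EGFRi arm, against 1548.8, 1183.2, 1525.4 and 1120.6 in the control arm. On this probe set Dkc1 was higher in MET KO + EGFRi on days 1 and 5 and lower on days 0 and 2. A second Dkc1 probe set was lower in MET KO + EGFRi on day 1 as well, at 617.7 against 676.2. Its mean difference was 0.02. Gar1 had 917.4, 1228.1, 726.7 and 959.2 in the MET KO + EGFRi arm, against 568.1, 685.2, 864.3 and 650.9 in the control arm, and was lower in MET KO + EGFRi on day 2 only, with a mean difference of 0.42 (limma adjusted p = 0.412). Nhp2 had 926.2, 1230.9, 1180.6 and 1195.3 in the MET KO + EGFRi arm, against 1067.1, 1312.0, 1924.2 and 1434.5 in the control arm. Nhp2 was lower on each day, but its value came from a probe set that can bind related RNAs, and a probe set without that property gave a difference of 0.15, in the opposite direction. Nop10, a small protein of the particle, varied little on its strongest probe set, at 5355.3 to 6309.0 in the MET KO + EGFRi arm and 4672.8 to 5978.3 in the control arm. A second Nop10 probe set varied more, at 3495.6 to 4792.4 and 3443.9 to 5406.9. Its mean difference was -0.17, against 0.07 on the strongest one.

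Nucleolin (Ncl) and nucleophosmin (Npm1) are the abundant phosphoproteins of the nucleolus, and Nolc1 is a chaperone of snoRNPs. Ncl had a signal of 1854.3, 2274.1, 2431.5 and 2434.4 in the MET KO + EGFRi arm, against 1910.9, 1994.7, 2714.7 and 1254.3 in the control arm. Npm1 had 2168.6, 2297.6, 2894.7 and 2990.0 in the MET KO + EGFRi arm, against 2783.1, 2234.1, 3066.7 and 2039.0 in the control arm. On the strongest probe set of each gene, the lowest of the 8 arrays was control day 5 and the highest control day 2. A second Ncl probe set was also lowest in the control array of day 5, at 581.1 against 1264.8 in MET KO + EGFRi. Another Ncl probe set above the limit was highest in that control array, at 363.2 against 191.6 in MET KO + EGFRi. It can bind related RNAs, and its mean difference was -0.18. The other Npm1 probe set was lowest in the control array of day 1, at 1166.7 against 1205.1 in that of day 5. Its mean difference was 0.27. Without day 5 the log2 difference between arms on the strongest probe sets was 0.00 for Ncl and -0.13 for Npm1. Over all 4 days it was 0.23 and 0.04. Nolc1 had 683.4, 567.2, 399.4 and 628.7 in the MET KO + EGFRi arm, against 604.6, 587.3, 516.3 and 400.7 in the control arm.

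Mybbp1a, a nucleolar protein of precursor rRNA processing that also binds MYB, had a signal of 1170.3, 1482.7, 1057.5 and 1291.1 in the MET KO + EGFRi arm, against 819.9, 1004.5, 1026.0 and 1092.9 in the control arm. Nucleostemin (Gnl3), a nucleolar GTPase of dividing cells, had 2377.4, 3374.2, 2763.8 and 2588.1 in the MET KO + EGFRi arm, against 2366.9, 2958.7, 2377.6 and 1640.4 in the control arm. Both were higher in MET KO + EGFRi on all 4 days, though the day 0 signals of Gnl3 were nearly equal and the ranges of the arms overlapped. The limma adjusted p was 0.410 for Mybbp1a, with a log2 difference of 0.32, and 0.524 for Gnl3, with 0.26. A second Mybbp1a probe set was lower in MET KO + EGFRi on day 0, at 736.7 against 813.5, and had a mean difference of 0.16. Without day 5 the difference of Gnl3 was 0.13.

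Among the factors of the small subunit, Heatr1, a component of the processome that assembles on the nascent precursor and supports transcription by RNA polymerase I, had arms that did not overlap on its strongest probe set. It had a signal of 2378.0, 2227.4, 1493.7 and 1736.4 in the MET KO + EGFRi arm, against 1318.4, 1426.6, 1297.1 and 853.5 in the control arm. Heatr1 was 1.76-fold higher in MET KO + EGFRi on day 0, 1.53-fold on day 1, 1.14-fold on day 2 and 1.96-fold on day 5. The mean log2 difference was 0.65 ± 0.16 (SE, 4 arrays per arm), with a 95% interval of 0.29 to 1.01 and a limma adjusted p of 0.167. The difference was present on day 0, and it stayed between 0.54 and 0.80 when any array or day was left out. A second Heatr1 probe set above the limit had 576.8, 468.7, 469.9 and 502.8 in the MET KO + EGFRi arm, against 398.2, 450.9, 578.8 and 475.8 in the control arm. There the arms overlapped, day 2 was lower in MET KO + EGFRi, and the mean difference was 0.08. With the mean of all its probe sets the difference of Heatr1 was 0.40.

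Utp20, another processome component, had a signal of 688.9, 631.8, 443.3 and 490.3 in the MET KO + EGFRi arm, against 477.3, 552.7, 341.0 and 415.1 in the control arm, and like Heatr1 was higher on all 4 days. Nop14, a processome protein, had 435.1, 735.0, 535.1 and 221.9 in the MET KO + EGFRi arm, against 215.2, 637.4, 450.1 and 486.2 in the control arm. In both arms its day 1 signal was the highest, 1.59-fold over day 0 in MET KO + EGFRi and 2.48-fold in control livers. On day 5 it stood below day 0 in MET KO + EGFRi and above it in control livers. Wdr43, which joins the transcription and processing steps, had 1408.5 to 1809.6 in MET KO + EGFRi and 1516.1 to 1808.3 in control livers on its strongest probe set. A second Wdr43 probe set, which can bind related RNAs, varied more, at 571.1 to 907.5 and 324.7 to 834.6. Its mean difference was 0.37, against -0.03 on the strongest one. Rrp9, which binds the U3 snoRNA, had signals of 59.7 to 101.8, and Rrp12, a factor of subunit export, of 21.3 to 84.2, over the 8 arrays, both below the limit for testing.

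In the large subunit group, Bop1 and Pes1 form, with Wdr12, the PeBoW complex that is needed to process the large subunit rRNA. Bop1 had a signal of 868.4, 993.5, 780.2 and 876.8 in the MET KO + EGFRi arm, against 925.3, 973.5, 982.3 and 896.8 in the control arm. Pes1 had 278.5, 372.3, 221.0 and 394.8 in the MET KO + EGFRi arm, against 335.8, 388.6, 317.0 and 311.2 in the control arm. Both genes differed by -0.10 between the arms, both had their lowest signal of the 8 on day 2 in MET KO + EGFRi, and neither passed the test. Wdr12 lay below the limit, at 89.6 to 362.9, as did Ppan, a large subunit factor, at 77.7 to 196.7.

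Rrs1, which brings ribosomal proteins and a small ribosomal RNA into the large subunit precursor, had the widest course of all members. Its signal was 2806.1, 1679.7, 1013.3 and 1373.9 in the MET KO + EGFRi arm, against 1605.6, 1250.2, 818.1 and 477.4 in the control arm. Its signal stood below that of day 0 on every later day in both arms, and control livers of day 5 were 3.06-fold below control livers of day 0. Averaged over both arms its log2 difference from day 0 was -0.53 on day 1, -1.16 on day 2 and -1.30 on day 5, with limma adjusted p of 0.744, 0.295 and 0.115. Between the arms Rrs1 was higher in MET KO + EGFRi on all 4 days, by 0.72 ± 0.19 (SE, 4 arrays per arm) over them, with an adjusted p of 0.204. Its probe set can bind related RNAs, but a second one, without that property, had a mean difference of 0.77, and signals of 1672.0, 930.9, 562.0 and 734.9 in the MET KO + EGFRi arm and of 694.7, 476.1, 564.8 and 319.2 in the control arm.

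Rpf2, which works in a complex with Rrs1, did not share that course. Its signal was 778.6, 805.9, 864.2 and 1414.7 in the MET KO + EGFRi arm, against 921.9, 862.4, 1448.5 and 964.1 in the control arm. On this probe set each arm thus had 1 high array, that of day 5 in MET KO + EGFRi and that of day 2 in control livers. A second Rpf2 probe set, which can bind related RNAs, was lowest among the control arrays on day 2, at 290.0, and highest on day 1, at 425.8. Its mean difference was 0.20, against -0.12 on the strongest one. Wdr74, a factor of large subunit maturation, had 1211.1, 1215.2, 1253.1 and 1065.6 in the MET KO + EGFRi arm, against 946.6, 899.3, 1046.5 and 1047.6 in the control arm. The arms of Wdr74 did not overlap, but its lowest MET KO + EGFRi and highest control values were close, and the difference of 0.25 had a limma adjusted p of 0.494.

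Nop2, an RNA methyltransferase of the large subunit and a marker of proliferating nucleoli, had a signal of 381.1, 628.6, 359.1 and 482.8 in the MET KO + EGFRi arm, against 416.7, 442.8, 463.7 and 124.8 in the control arm. On day 5 it was 2.83-fold higher in MET KO + EGFRi, where the control array was the lowest of the 8, and on days 0 and 2 it was lower. Leaving out day 5 brought its difference between the arms to 0.01, against 0.38 over all 4 days. Nop16, a large subunit factor, had 686.7 to 1043.2 in MET KO + EGFRi and 659.9 to 859.1 in control livers.

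Ornithine decarboxylase (Odc1) makes putrescine in the rate-limiting step of polyamine synthesis, and spermidine synthase (Srm) turns putrescine into spermidine. Odc1 had a signal of 2740.8, 2913.4, 2859.9 and 2169.6 in the MET KO + EGFRi arm, against 2197.6, 2472.8, 2733.8 and 2435.0 in the control arm. It differed by 0.11 between the arms (95% interval -0.20 to 0.42), higher in MET KO + EGFRi on days 0, 1 and 2 and lower on day 5, and its other probe sets above the limit differed by -0.25 and -0.15. Srm had 2432.6, 5309.4, 2910.7 and 3766.1 in the MET KO + EGFRi arm, against 2424.9, 3312.7, 3551.1 and 2527.4 in the control arm. The arms started at nearly the same Srm signal on day 0. On day 1 Srm stood 2.15-fold over day 0 in MET KO + EGFRi and 1.36-fold in control livers, and the highest control value came on day 2. Averaged over both arms the day 1 difference of Srm was 0.77 (95% interval 0.18 to 1.36, limma adjusted p = 0.531), the smallest adjusted p of a member on that day.

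**Figure D3:**
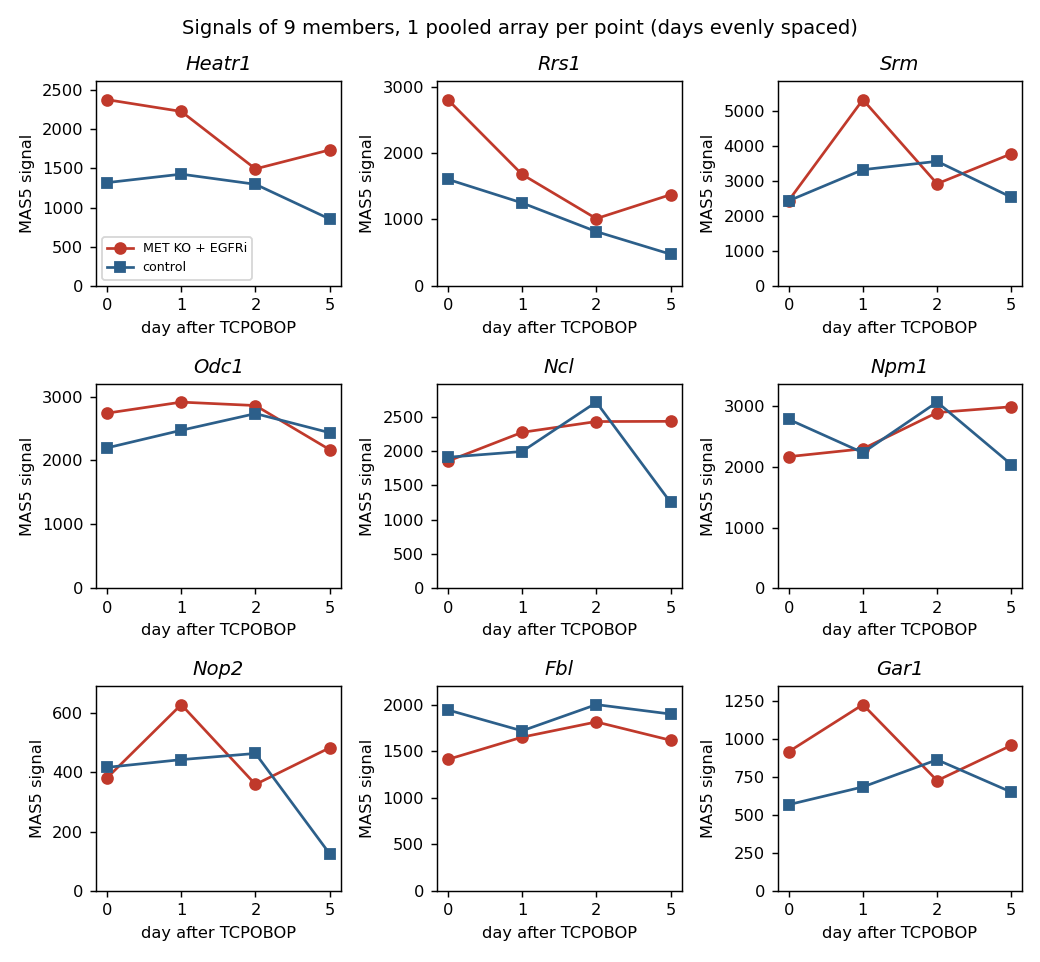
Signals of 9 members by day after TCPOBOP, with 1 pooled array per point, MET KO + EGFRi as red circles and control as blue squares, on linear axes from 0. Heatr1 is higher in MET KO + EGFRi on all days, Rrs1 stands below its day 0 value later in both arms, Srm peaks on day 1 in MET KO + EGFRi, and Ncl, Npm1 and Nop2 are low in the control array of day 5.

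The response to TCPOBOP was then averaged over both arms. In these tests the 2 arms, which were treated differently, stand as the 2 units of each day, and p-values do not measure the spread between animals. No member passed an adjusted limma p of 0.05 on day 1, 2 or 5 against day 0, where 0.124%, 0.0578% and 0.33% of all genes did. Without adjustment the members with p under 0.05 were 2 on day 1 (Nop14 and Srm higher; 7.41% against 7.62% of all genes), 3 on day 2 (Nhp2 higher, Utp20 and Rrs1 lower; 11.1% against 7.7%) and 2 on day 5 (Heatr1 and Rrs1 lower; 7.41% against 10.7%). The median log2 difference from day 0 was 0.07, 0.09 and -0.01 on days 1, 2 and 5, beside -0.01, -0.02 and 0.00 over all genes. Half-widths of the 95% intervals had a median of 0.52 on each day.

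Whether the change after day 0 differed between the arms was asked with an interaction term of arm and TCPOBOP, which left 2 residual degrees of freedom. In limma 0 members and 0% of all genes were called, and at an unadjusted p under 0.05 there were 0 members against 4.48% of all genes. The median over members was -0.06, beside 0.04 over all genes. The median half-width of the intervals was 0.89, and 17 of the 27 intervals reached beyond a log2 difference of 1, so a difference of that size between the arms' responses is not excluded for those genes.

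Single days and single arms have 1 array on each side and no test. The median of the members, MET KO + EGFRi minus control, was 0.03 on day 0, 0.19 on day 1, -0.13 on day 2 and 0.21 on day 5, beside -0.03, 0.01, 0.02 and -0.01 over all genes. At least 1.5-fold higher in MET KO + EGFRi were 4 members on day 0 (Gar1, Heatr1, Nop14 and Rrs1), against 7.43% of all genes, and 6 on day 1 (Polr1a, Nop58, Gar1, Heatr1, Nop16 and Srm), against 8.67%. There were 0 members lower to that extent on either day, against 8.17% of all genes on day 0 and 8.24% on day 1. On day 2 the counts lay the other way, with 0 members higher, against 10.1%, and 3 lower (Nop56, Nhp2 and Rpf2), against 7.9%. On day 5 there were 5 higher (Ncl, Gnl3, Heatr1, Nop2 and Rrs1), against 7.66%, and 1 lower (Nop14), against 7.78%. At 2-fold only Nop2 and Rrs1 on day 5 were left, both higher in MET KO + EGFRi, against 2.25% of all genes (2.16% were lower). On the other days no member reached 2-fold, against 2.64% of all genes higher and 2.18% lower on day 0, 2.89% and 2.63% on day 1, and 2.88% and 2.03% on day 2.

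**Figure D4:**
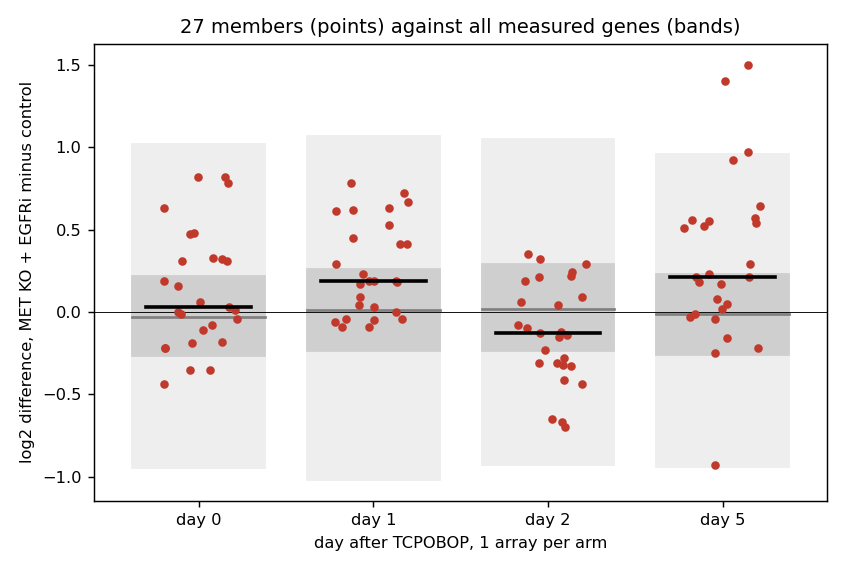
Points are the 27 members, with their log2 difference MET KO + EGFRi minus control on each day (1 array per arm) and a black bar at their median. Light and dark bands hold the central 95% and the central 50% of all 12112 genes. The medians are 0.03, 0.19, -0.13 and 0.21 on days 0, 1, 2 and 5, and most members lie within the light band.

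Each arm was also set against its own day 0. In MET KO + EGFRi livers the median log2 change from the arm's own day 0 was 0.18 on day 1, -0.06 on day 2 and 0.12 on day 5, and in control livers it was 0.07, 0.14 and -0.09. All 6 values lie within 0.20, the residual spread of a difference between such list medians in the fit of arm and day. That spread was computed from the members' own medians on the same 8 arrays. It is therefore no separate yardstick, and nothing is concluded from it. On day 1 Nop14, Nop2 and Srm were at least 1.5-fold higher in MET KO + EGFRi, against 6% of all genes, and Nop14 in control livers, against 7.9%. On day 2 there were 0 in MET KO + EGFRi, against 7.52%, and Nhp2, Nop14 and Rpf2 in control livers, against 8.35%. On day 5 they were Rpf2 and Srm in MET KO + EGFRi, against 8.87%, and Nop14 in control livers, against 9.02%. At least 1.5-fold lower than day 0 in MET KO + EGFRi were Rrs1 on day 1 (5.71% of all genes), Nolc1, Heatr1 and Rrs1 on day 2 (7.42%), and Nop14 and Rrs1 on day 5 (8.07%). In control livers they were 0 members on day 1 (8.41%), Rrs1 on day 2 (10.3%), and Heatr1, Nop2 and Rrs1 on day 5 (9.01%). At 2-fold, Srm was higher on day 1 (1.6% of all genes; 1.76% lower) and Rrs1 lower on day 2 (2.09%; 2.13% higher) in MET KO + EGFRi, and no member on day 5 (2.82% higher and 2.7% lower). In control livers, Nop14 was 2-fold higher on day 1 (2.58%; 2.27% lower), no member on day 2 (2.58% higher and 2.73% lower), and Nop2 and Rrs1 were lower on day 5 (2.57%; 2.82% higher). All changes of 1 arm share its day 0 array.

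The extremes of the members were counted by array. On day 1 the MET KO + EGFRi array held the highest value of 11 members (40.7% of 27), against 12.8% of all genes. The control array of day 2 held that of 7 (25.9%), against 12.2%. The control array of day 5 held the lowest value of 7 members (Dkc1, Ncl, Npm1, Gnl3, Heatr1, Nop2 and Rrs1; 25.9%), against 13.4% of all genes. The control arrays of days 0, 1 and 5 held no member's highest value, against 15.2%, 10.1% and 16.1% of all genes. Since each of these arrays is 1 pool, what sets these arrays apart was not tested.

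Other genes of the same pathways, which were not among the members, had similar medians between the arms and no call. Of 13 other genes of the RNA polymerase I machinery 9 were measured, with a median log2 difference of 0.10. Of 40 other factors of the small subunit 38 were measured, 26 higher and 12 lower in MET KO + EGFRi, with a median of 0.10. Wdr46, a processome scaffold protein, had the largest difference there, at 0.62 (limma adjusted p = 0.335). Of 39 other factors of the large subunit 35 were measured, 25 higher and 10 lower, with a median of 0.11, and the largest difference was 0.54 for Nol8 (adjusted p = 0.488).

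Of 19 other genes of polyamine metabolism and hypusination, the polyamine-dependent modification of the translation factor eIF5A, 16 were measured, 9 higher and 7 lower, with a median of 0.02 and no call. Sat1, the acetyltransferase that starts polyamine breakdown, had a signal of 3357.8, 3951.3, 2258.3 and 2590.5 in the MET KO + EGFRi arm, against 1903.1, 1795.3, 2027.8 and 1749.0 in the control arm. The arms of Sat1 did not overlap, with a difference of 0.65 and a limma adjusted p of 0.196. Mat1a, the liver enzyme that makes S-adenosylmethionine, from which the aminopropyl groups of spermidine and spermine come, had 33109.7, 37478.4, 21987.6 and 26438.1 in the MET KO + EGFRi arm, against 18292.3, 13419.5, 13746.6 and 19761.2 in the control arm. Its difference of 0.86 had an adjusted p of 0.128. Both were thus higher on all 4 days without passing the test, as was Arg1, the arginase that supplies ornithine, with a difference of 0.45 (adjusted p = 0.234).

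Ribosomal protein genes stood above day 0 on the later days in both arms, without passing the test. Of 79 cytosolic ribosomal protein genes 44 had a probe set of their own and 42 were measured. Between the arms their median over the 4 days was 0.00, with 21 higher and 21 lower, but single days differed. The median of MET KO + EGFRi minus control was 0.11, -0.24, -0.13 and 0.32 on days 0, 1, 2 and 5. Of the 42 genes, 25, 6, 14 and 39 were higher in MET KO + EGFRi on these days, with 1 array per arm and no test. Over both arms their median log2 difference from day 0 was 0.29 on day 1, 0.42 on day 2 and 0.53 on day 5, with 38, 41 and 38 of the 42 above 0. No ribosomal protein passed the adjusted threshold in limma, and at an unadjusted p under 0.05 there were 2, 11 and 20 higher on days 1, 2 and 5, against 4.48%, 4.34% and 6.02% of all genes. At the same p there were 0, 1 and 0 lower, against 3.14%, 3.36% and 4.67%. The day 1 median was 0.48 with the MET KO + EGFRi array of that day left out and 0.10 with the control array left out, and the day 5 median was 0.28 with the MET KO + EGFRi array left out. Rps7 had a signal of 15360.7, 18427.1, 22409.8 and 26950.2 in the MET KO + EGFRi arm and of 13026.9, 22932.3, 22002.7 and 24951.9 in the control arm, a day 5 difference of 0.87 (adjusted p = 0.166). With quantile normalization, which equalizes the arrays' distributions, the 3 medians were 0.13, 0.23 and 0.28. The 7 hepatocyte markers had medians of 0.31, 0.25 and 0.65 on the same days, and their part in the ribosomal protein values was not tested.

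**Figure D5:**
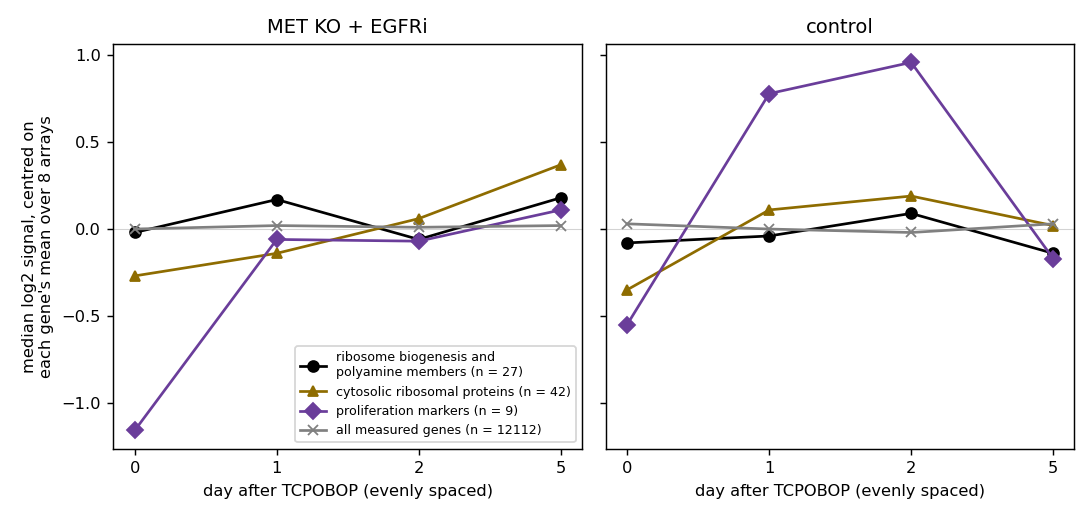
Lines show, for each array, the median log2(signal + 71) of a gene list after centring each gene on its mean over the 8 arrays, with MET KO + EGFRi on the left and control on the right. The 27 members stay between -0.14 and 0.18, and the 42 ribosomal proteins are lowest on day 0 in both arms. The 9 proliferation markers go from -1.16 on day 0 to 0.11 on day 5 in MET KO + EGFRi. In control livers they go from -0.55 on day 0 to 0.96 on day 2.

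In the MYC network and growth control list, 18 of 24 genes were measured, 13 higher and 5 lower in MET KO + EGFRi, with a median of 0.12. Myc had a signal of 158.6, 254.4, 394.6 and 425.4 in the MET KO + EGFRi arm, against 36.4, 303.2, 459.9 and 149.8 in the control arm. In both arms Myc was lowest on day 0, and on day 5 it was at its highest in MET KO + EGFRi while the control array had come down again. Its difference between the arms was 0.47, with a limma adjusted p of 0.594. Max lay below the limit, at 32.3 to 49.1 in MET KO + EGFRi and 45.3 to 244.9 in control livers.

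Eif4ebp1, a repressor of cap-dependent translation that is itself inhibited by mTOR, was the 1 gene of the list that passed the test. It had a signal of 2377.9, 3219.2, 2299.2 and 2390.5 in the MET KO + EGFRi arm, against 1358.6, 1213.1, 1302.1 and 1294.3 in the control arm, a difference of 0.94 (limma adjusted p = 0.0374). That probe set can bind related RNAs. A second one, without that property, had 908.5, 1244.6, 1217.3 and 1299.9 in the MET KO + EGFRi arm and 884.9, 882.6, 1016.0 and 859.2 in the control arm, and the remaining one was lower in MET KO + EGFRi on all 4 days. With the mean of its probe sets the difference was 0.15 (adjusted p = 0.786), and without probe sets of this kind 0.33 (adjusted p = 0.410). It did not pass the threshold in any of the 12 fits that left out an array or a day.

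Markers of other cell types and of proliferation were read beside the members. The 10 Kupffer cell and macrophage markers were all above 0 in the difference between the arms, with a median of 0.65, and 1 of them, Cd5l, was called higher. Their summed signal was 28866 to 51289 in MET KO + EGFRi and 16075 to 35756 in control livers. The 6 measured neutrophil and monocyte markers summed to 7639 to 11304 in MET KO + EGFRi and 3756 to 4925 in control livers, with S100a8 and S100a9 called higher. The 9 measured proliferation markers were all below 0 between the arms, with a median of -0.42 and no call. By day their median was -0.07, -0.87, -0.97 and 0.40 on days 0, 1, 2 and 5, and on day 5 7 of the 9 were higher in MET KO + EGFRi. Set against the arm's own day 0, their median change on days 1, 2 and 5 was 1.06, 0.55 and 1.27 in MET KO + EGFRi. In control livers it was 1.12, 1.43 and 0.65. The list summed to 3120 to 7632 in MET KO + EGFRi and 3555 to 13817 in control livers. Mki67 had a signal of 114.5, 263.0, 289.2 and 312.2 in the MET KO + EGFRi arm, against 192.3, 446.9, 636.0 and 296.9 in the control arm. Ccnb2, a mitotic cyclin, reached 422.2 on day 5 as its highest in MET KO + EGFRi and 2030.4 on day 2 in control livers. The members' median between the arms was 0.03, 0.19, -0.13 and 0.21 on days 0, 1, 2 and 5. Mcm6 lay below the limit.

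Of the other cell types, the 7 sinusoidal endothelial markers had a median of 0.07 between the arms and no call, with sums of 10660 to 13855 in MET KO + EGFRi and 8888 to 13224 in control livers. The 6 measured stellate cell markers had a median of -0.06, with Dcn called higher (1.00, limma adjusted p = 0.0298), and the list summed to 11353 to 15063 in MET KO + EGFRi and 8399 to 9713 in control livers. The 2 measured cholangiocyte markers had a median of -0.10 and the 3 measured lymphocyte markers of 0.07, without a call, and Lrat, Krt19, Krt7, Cd3e, Cd3g and Nkg7 lay below the limit. The part of these cell types in the values of the members was not tested.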

How the data were processed

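The deposited intensity values, 1 linear signal per probe set and array, were computed with MAS5 per the submitters' processing notes. As the values show, every array has a mean of 500 over its values without the highest and lowest 2 percent. Per the labels' protocols, 6 µg of RNA from pooled livers went on each array. The MAS5 version and detection calls are not given in the sources used here.

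From 45101 probe sets, 64 controls were left out. Of the other 45037, 34945 had 1 gene in the platform's table, 932 several and 9160 were not listed. Values are log2(signal + 71), where 71 is the lower quartile over all arrays. Each gene takes the probe set of highest mean, and was tested where that mean reached 8.24, the median over probe sets. In 15 members with several probe sets above this limit, the sign of the difference between arms was the same over probe sets in 8 and not in 7 (Ncl, Nhp2, Nolc1, Nop10, Odc1, Rpf2 and Wdr43). Chosen probe sets of Nhp2, Gar1 and Rrs1 end in _s_at or _x_at and can bind related RNAs.

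In R 4.3.3, limma 3.58.1 was run with arm and day as terms, leaving 3 residual degrees of freedom, and a second model with the interaction of arm and TCPOBOP. Variances were moderated with a trend, and the tests were tried on simulated data. The figures were drawn with matplotlib 3.10.9. The number of arrays limits the precision. The alternatives tried were other pseudocounts, filters, probe set rules, normalizations and variance settings, and leaving out arrays or days.

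The members, lists and tests were chosen with earlier results of these data known. All members were accounted for, with signals per array for core enzymes and for the most and least variable members of each role, and further ones. From each other list up to 4 genes with the largest difference could be named. Cyp2b10, Myc, Max, Mki67 and Ccnb2 were always read. The per-array signals of the second probe sets, the extremes per array and the marker sums were added after seeing the data.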

Additional observations from a re-analysis of the deposited data

How the results depend on the processing

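No member was called in any of the 5 tests under the alternatives that could be fitted: 21 for the arms, 19 each for days 1, 2 and 5, and 18 for the interaction. The smallest adjusted limma p of a member ran from 0.116 to 0.495 between the arms, from 0.346 to 0.946 on day 1, from 0.181 to 0.648 on day 2, from 0.0719 to 0.39 on day 5 and from 0.825 to 1 for the interaction. The members' median between the arms ran from 0.06 to 0.21. On single days it kept its direction on days 1, 2 and 5 and ran from 0.00 to 0.10 on day 0. The change from day 0 in MET KO + EGFRi ran from -0.06 to 0.05 on day 2 and from -0.03 to 0.12 on day 5, so its sign depends on the setting. A 2-fold in place of the 1.5-fold limit left 0, 0, 0 and 2 of 4, 6, 3 and 6 members between the arms on days 0, 1, 2 and 5. On days 1, 2 and 5 against day 0 it left 1, 1 and 0 of 4, 3 and 4 in MET KO + EGFRi and 1, 0 and 2 of 1, 4 and 4 in control livers. Eif4ebp1 was past the threshold in 5 of 21 alternatives. Ribosomal protein medians, an alternative chosen after seeing the data, stayed above 0 in every fit, at 0.10 to 0.48 on day 1, 0.23 to 0.53 on day 2 and 0.28 to 0.75 on day 5. Array number and pooling limit what can be seen. The arms were compared within days, since day was a term of the fit. The labels carry no replicate numbers for a further block.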
